A study of Mus musculus with 10 samples.

Results

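The genes described here are the kinesin motor proteins and a set of genes of DNA replication and mitosis, measured in medullary thymic epithelial cells (mTECs) with and without the transcription factor Fezf2. They were chosen by gene symbol: every gene whose symbol begins with Kif and a number, the Mcm2 to Mcm7, Cenp and Cdca families, the A, B and E cyclins, and 14 single genes such as Mki67 and Top2a. This gave 90 genes on 209 probe sets, of 18194 genes and 45101 probe sets in all, and 84 of the 90 were bright enough to be tested. Of these 84, 62 are called cell cycle genes below, with 9 mitotic kinesins among them, and 22 are the other kinesins, of which 14 carry cargo and 8 are ciliary, signalling or other kinesins. The tested arrays were 5 of Fezf2 KO mTECs and the comparison arrays 5 of wild-type (WT) mTECs. All mice were 3 weeks old, on a C57BL/6 background, and all cells were sorted from the thymus as CD45-negative, EpCAM-positive and high for CD80. Arrays are named KO 6 to KO 10 and WT 1 to WT 5 after the numbers in their titles. How the Fezf2 allele was made, whether it was lost only in the epithelium, and whether arrays came from separate mice are not given in the labels, so each p-value refers to array-to-array spread, part of which may be technical.

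Kinesins are motors that walk along, or shorten, microtubules with energy from ATP. Mitotic kinesins build the spindle, move chromosomes and help to divide the cell, and their genes are switched on together with those of other mitotic proteins as a cell approaches division. Other kinesins carry vesicles, organelles and protein complexes, or work in cilia, and their genes are used in cells that do not divide. In the mTEC lineage dividing cells are found among the progenitors and early mature cells, including cells of high MHC class II and CD80, while late mTECs have left the cycle.

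The promoters of both kinds of kinesin differ in a way that can be read from the genome, and a few are shown so that mitotic and other genes can be set side by side. The cell cycle genes homology region (CHR) is a short element bound by the complexes that repress and then activate mitotic genes, and the CCAAT box is bound by NF-Y. Windows of 300 bases, from 250 before to 50 after the RefSeq gene start in build GRCm38.p6, were found for 73 of the 84 tested genes. Capitals mark the CHR letters TTTGAA or TTCGAA, the CCAAT box CCAAT and the E2F letters TTTCGCGC, TTTGGCGC, TTTCCCGC or TTTGGCGG, each searched on both strands. Top2a and Mki67 are standard markers of dividing cells, Kif20b and Kif11 are mitotic kinesins, and Kif26a and Kif5c are the other kinesins with the largest falls in KO cells. The windows are chr11:99024140-99024439 on the minus strand for Top2a, chr7:135716330-135716629 on the minus strand for Mki67, chr19:34922108-34922407 on the plus strand for Kif20b, chr19:37376132-37376431 on the plus strand for Kif11, chr12:112145958-112146257 on the plus strand for Kif26a and chr2:49619036-49619335 on the plus strand for Kif5c.
Top2a: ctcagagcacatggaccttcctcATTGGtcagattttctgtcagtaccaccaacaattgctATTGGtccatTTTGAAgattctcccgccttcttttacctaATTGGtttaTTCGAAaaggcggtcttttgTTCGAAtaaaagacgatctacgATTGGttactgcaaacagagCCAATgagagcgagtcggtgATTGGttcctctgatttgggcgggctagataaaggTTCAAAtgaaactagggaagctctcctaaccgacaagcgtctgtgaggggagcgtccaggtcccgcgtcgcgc
Mki67: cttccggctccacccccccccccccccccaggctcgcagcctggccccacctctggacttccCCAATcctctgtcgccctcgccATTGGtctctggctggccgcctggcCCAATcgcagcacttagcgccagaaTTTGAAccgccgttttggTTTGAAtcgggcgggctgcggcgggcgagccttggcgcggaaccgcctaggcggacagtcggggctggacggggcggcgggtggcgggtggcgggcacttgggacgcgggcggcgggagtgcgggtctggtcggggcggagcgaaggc
Kif20b: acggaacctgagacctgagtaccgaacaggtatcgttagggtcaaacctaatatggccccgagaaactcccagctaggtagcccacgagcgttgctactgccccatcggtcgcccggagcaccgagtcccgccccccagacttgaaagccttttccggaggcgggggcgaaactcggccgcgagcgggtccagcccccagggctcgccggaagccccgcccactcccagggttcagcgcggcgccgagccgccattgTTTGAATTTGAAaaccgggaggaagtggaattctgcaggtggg
Kif11: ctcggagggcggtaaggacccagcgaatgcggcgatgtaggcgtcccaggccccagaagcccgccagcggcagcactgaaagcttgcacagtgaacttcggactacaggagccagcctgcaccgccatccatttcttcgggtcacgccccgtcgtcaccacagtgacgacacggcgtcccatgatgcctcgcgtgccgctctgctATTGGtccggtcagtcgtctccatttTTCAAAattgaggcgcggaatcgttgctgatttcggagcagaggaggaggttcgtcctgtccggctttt
Kif26a: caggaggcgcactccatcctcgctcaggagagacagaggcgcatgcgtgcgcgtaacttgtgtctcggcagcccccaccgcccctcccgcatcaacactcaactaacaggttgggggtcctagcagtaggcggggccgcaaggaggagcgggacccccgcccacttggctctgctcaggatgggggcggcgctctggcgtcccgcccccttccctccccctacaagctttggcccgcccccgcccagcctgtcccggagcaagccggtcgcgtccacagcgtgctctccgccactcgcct
Kif5c: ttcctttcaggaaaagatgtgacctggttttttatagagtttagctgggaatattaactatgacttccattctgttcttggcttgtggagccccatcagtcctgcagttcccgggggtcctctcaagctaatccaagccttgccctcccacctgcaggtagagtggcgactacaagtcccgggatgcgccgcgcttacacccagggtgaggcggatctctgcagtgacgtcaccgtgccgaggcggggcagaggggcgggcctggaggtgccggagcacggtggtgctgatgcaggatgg

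The Top2a window held 10 matches to these letters, whereas the Kif26a and Kif5c windows held 0 each. CHR letters were present in 28 of 55 cell cycle gene promoters (50.9%), in 2 of 18 promoters of other kinesins (11.1%) and in 19.4% of the 27025 promoters of all genes. Among the mitotic kinesins 7 of 8 promoters held them, all but that of Kif18a. CCAAT boxes were present in 40 of 55 cell cycle promoters (72.7%), 6 of 18 of the other kinesins (33.3%) and 37.9% of all, and E2F letters in 11 of 55 (20.0%), 0 of 18 and 2.42%. Both a CHR and a CCAAT box stood in 25 of 55 cell cycle promoters (45.5%), against 7.70% of all. Matches of different elements overlapped in 3 of the 73 windows. These are matches of letters, described here without a test, and no match says only that the letters are not in this window.

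Values are deposited linear signals of a probe set, and fold changes are KO minus WT on the log2(signal + 16) scale, fitted with limma over 14087 genes and called at an adjusted p (Benjamini-Hochberg) under 0.05. To be tested, a gene needed at least 5 of the 10 arrays with a signal over the 40th percentile on that array, a limit of 21.5 to 22.1. Fezf2 signal lay between 12.1 and 18.3 on the KO arrays and between 5054 and 5895 on the WT arrays, so every array matched its genotype label. KO 6 and WT 1 stood apart from the other arrays in their controls, with spike-in signals of 694 and 490 against 106 to 390 on the others, and 18S rRNA signals of 3762 and 3445 against 765 to 1774. Xist, the transcript of the inactive X chromosome in female cells, was near background on KO 6, KO 8 and WT 2 (21.1 to 30.0) and between 5304 and 6100 on the other arrays. The ratio of 3' to 5' Gapdh signal, a sign of RNA integrity, was 1.45 on KO 6, 1.32 to 1.39 on the other KO arrays and 1.25 to 1.42 on the WT arrays. The epithelial label was checked against Epcam, at 7456 to 7985 on KO and 6994 to 7564 on WT arrays. A second check was the summed signal of 18 epithelial and mTEC genes, 109615 to 114252 on KO and 99562 to 112505 on WT arrays. Of these 18 genes 3 were lower and 5 higher, against 16.2% and 13.0% of all genes. Among those lower was Aire, the regulator of self-antigen expression that marks mature mTECs, with 4368 on KO 6 and 6899 to 7203 on the other KO arrays, against 6966 to 9885 on the WT arrays, and a log2 change of -0.45 (SE 0.14, adjusted p = 0.0282). The leukocyte gene Ptprc, which encodes the CD45 used in the gate, had signals of 155 to 278 on KO and 210 to 298 on WT arrays.

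Of the 84 genes 17 were lower and 2 were higher in KO cells. Most cell cycle genes had lower mean signals in KO cells but varied widely between KO arrays and seldom passed the threshold, whereas the other kinesins varied little and passed more often. Of the 62 cell cycle genes 7 were lower in KO cells, 0 were higher and 55 were not past the threshold, so that 11.3% were lower, against 16.2% of all genes tested (29.2% in either direction). At an unadjusted p under 0.05, 22 were lower and 1 was higher. More genes of every kind pass this looser level, so counts at it, here and below, cannot be read against the 16.2%. Of the 22 other kinesins 10 were lower (45.5%), 2 were higher (9.09%, against 13.0% of all genes) and 10 were not past the threshold. Every KO value lay below every WT value in 5 of the 62 cell cycle genes and 9 of the 22 other kinesins, against 12.0% of all genes. The median log2 change was -0.28 for the cell cycle genes, -0.19 for the other kinesins and -0.025 for all genes. The median standard error was 0.16, 0.087 and 0.086 in the same order, so a change of equal size passed less easily in a cell cycle gene. In bulk RNA, fewer dividing cells and less of these transcripts per dividing cell cannot be told apart.

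**Figure D1:**
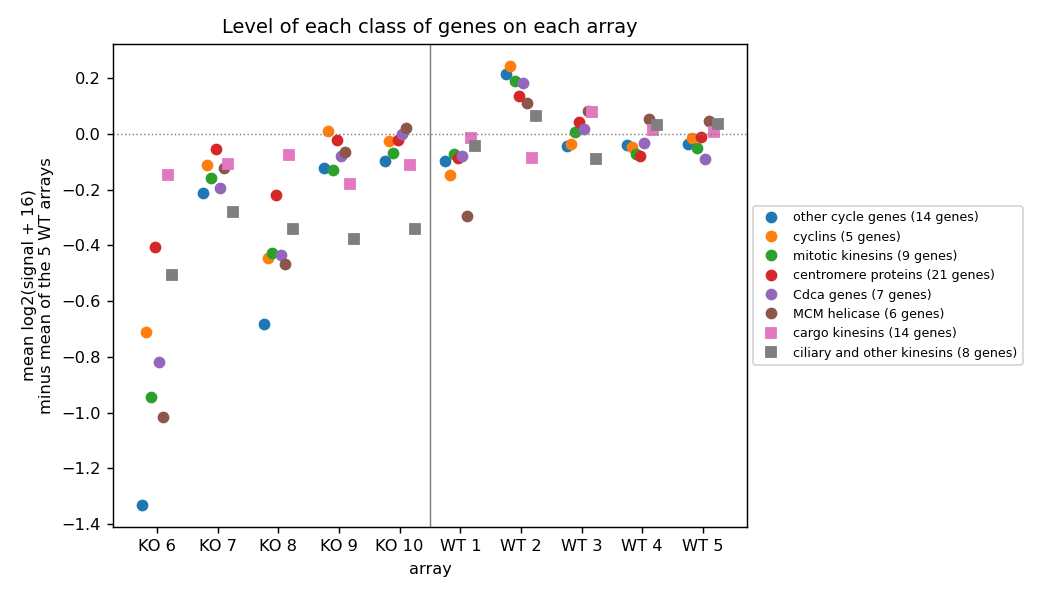
Mean log2(signal + 16) of each class of genes on each array, minus the mean of the 5 WT arrays, with KO arrays on the left; circles are cell cycle classes and squares the other kinesins. The cell cycle classes are lowest on KO 6 and next lowest on KO 8, whereas the ciliary and other kinesins lie between -0.51 and -0.28 on all 5 KO arrays. The cargo kinesins lie between -0.18 and -0.074 on the KO arrays and overlap the WT arrays, at -0.088 to 0.079.

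Mki67, the nuclear protein by which dividing cells are counted, had signals of 339.6, 775, 507, 789 and 809.8 on KO 6 to KO 10, against 905, 982, 875, 858 and 921 on WT 1 to WT 5. All KO signals lay below all WT signals, but the KO arrays ranged widely, with KO 6 and KO 8 far below KO 7, KO 9 and KO 10. The log2 change was -0.56 (SE 0.20, adjusted p = 0.0551), just short of the threshold, and -0.35 (adjusted p = 0.0463) without KO 6; it also passed without KO 7, KO 9 or KO 10 (adjusted p = 0.0331 to 0.0454). Top2a, the topoisomerase that untangles DNA before chromosomes separate, had signals of 223, 719, 484, 700.2 and 788 on KO 6 to KO 10, against 845, 1065, 939.5, 947 and 866 on WT 1 to WT 5. Its groups did not overlap either, and KO 6 again had the lowest value. The log2 change of Top2a was -0.78 (SE 0.27, adjusted p = 0.0464). The call was lost without KO 8 (adjusted p = 0.0948) or without any single WT array (adjusted p = 0.0603 to 0.0957), while it held without KO 6 with a smaller change of -0.48 (adjusted p = 0.0124). It was also lost with the Xist signal as a block (-0.67, adjusted p = 0.0617).

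Cdk1, the kinase that drives entry into mitosis, had signals of 195, 566, 376, 611 and 666 on KO 6 to KO 10, against 693, 841, 635, 638 and 725 on WT 1 to WT 5. Here KO 10 lay within the WT range, and the change of -0.64 (SE 0.26, adjusted p = 0.0881) did not pass, with a 95% interval of -1.22 to -0.069. It passed without KO 10 (-0.79, adjusted p = 0.0451). Pcna, the sliding clamp of DNA polymerases, which is also used in repair, had signals of 2277, 2742, 2279.8, 2590.1 and 2598 on KO 6 to KO 10, against 2684, 3389, 2840.2, 2789 and 2873 on WT 1 to WT 5. KO 6 and KO 8 were lowest and KO 7 overlapped WT 1, and its change of -0.22 (SE 0.076, adjusted p = 0.045) was the smallest of the 7 cell cycle genes that fell. With single arrays left out in turn, the call survived only the removal of KO 7 or WT 1 and was gone in the other 8 fits, with adjusted p up to 0.111 without KO 8. It was also lost with the Xist signal as a block (adjusted p = 0.0649).

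**Figure D2:**
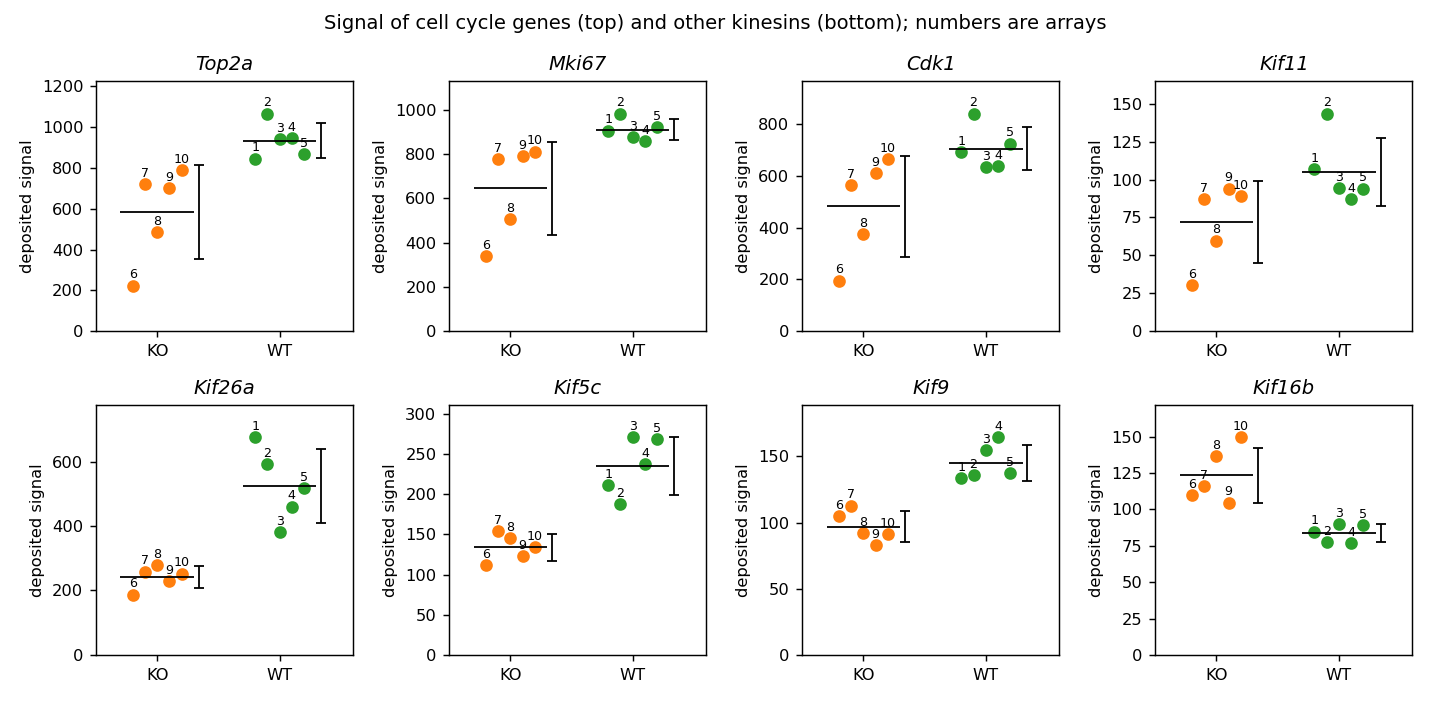
Deposited signal of 4 cell cycle genes (top) and 4 other kinesins (bottom) on each array, with KO on the left; numbers name the array, the horizontal line is the mean and the bar the SD over 5 arrays. In the top panels KO 6 and KO 8 are the lowest arrays, and in the bottom panels the 5 KO values of each gene stay clear of the 5 WT values.

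Among the mitotic kinesins 2 of 9 were lower and none was higher, against 16.2% and 13.0% of all genes. All 9 had a change below 0, with a median of -0.40, and 5 were lower at an unadjusted p under 0.05. Kif20b, which works in the last step of cell division, had signals of 82.9, 128, 124, 116 and 148 on KO 6 to KO 10, against 161, 206, 169, 162 and 166 on WT 1 to WT 5. KO and WT values did not overlap, and the log2 change was -0.49 (SE 0.12, adjusted p = 0.00947), and it stayed called whichever of the 10 arrays was left out. Kif4, a chromosome-bound motor that shapes the central spindle and is encoded on the X chromosome, fell by 0.47 on the log2 scale, with 171 ± 37.7 in KO and 239 ± 33.0 in WT cells (SD, n = 5 each, as for every such value here, adjusted p = 0.0341). The call of Kif4 was lost without KO 8, WT 2, WT 3, WT 4 or WT 5 (adjusted p = 0.0537 to 0.0772) and with the Xist signal as a block (adjusted p = 0.0542).

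Kif11, the motor that pushes the spindle poles apart, had signals of 30.3, 87.2, 59.8, 94.1 and 89.2 on KO 6 to KO 10, against 107, 143, 94.5, 86.9 and 94.1 on WT 1 to WT 5. KO 6 had a signal 0.343 times the median of the other KO arrays, and KO 7, KO 9 and KO 10 overlapped the WT arrays. The change of Kif11 was -0.51 (SE 0.22, adjusted p = 0.101), with an interval of -0.98 to -0.036. Kif23, a motor of the central spindle needed for cytokinesis, had signals of 86.0, 196, 127, 205 and 201 on KO 6 to KO 10, against 178, 208, 193, 154 and 193 on WT 1 to WT 5. Its change of -0.23 (SE 0.19, adjusted p = 0.42) was not past the threshold, and it was -0.039 without KO 6. Kif20a, Kif2c and Kif22, which act in cytokinesis, at kinetochores and on chromosome arms, had changes of -0.49, -0.40 and -0.31, none past the threshold. Kif18a and Kif18b, which limit microtubule length in the spindle, had changes of -0.14 and -0.079, and Kif18a was above the 40th percentile of its array on only 3 of the 5 KO arrays. Kif14, Kif15 and Kif2b were too dim to be tested, at 20.5 or less on every array.

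The spindle checkpoint kinases ran in parallel. Bub1b, which holds back chromosome separation until every chromosome is attached, had signals of 80.6, 194, 139.9, 215 and 218 on KO 6 to KO 10, against 228, 315, 254, 275 and 295 on WT 1 to WT 5. The groups did not overlap and the log2 change was -0.70 (SE 0.21, adjusted p = 0.0256), while a second probe set gave -0.52. The call was lost without KO 8, WT 2, WT 4 or WT 5 (adjusted p = 0.0514 to 0.0611). Bub1, its partner at the kinetochore, had 204 ± 72.7 in KO and 303 ± 38.8 in WT cells and a change of -0.61 (SE 0.21, adjusted p = 0.0504), just short of the threshold although its groups did not overlap. The kinases Aurka, Aurkb and Plk1, which order the events of mitosis, had changes of -0.45, -0.32 and -0.33. Ube2c and Cdc20, parts of the machinery that destroys cyclins at the end of mitosis, had -0.58 and -0.37. The spindle factor Tpx2, the chromosomal passenger Birc5 and the ribonucleotide reductase subunit Rrm2 had -0.25, -0.42 and -0.61. None of these 8 passed the threshold, and KO 6 was the lowest of all 10 arrays for every one of the 14 genes in this class, which includes Mki67, Top2a, Cdk1 and Pcna. Relative to the median of the other KO arrays, Rrm2 was the member most reduced on KO 6, at 0.286 times that median.

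None of the 5 cyclins measured passed in limma, against 29.2% of all genes in either direction. At an unadjusted p under 0.05 there were also 0. Ccna2 and Ccnb2, the cyclins of S phase and mitosis, had changes of -0.49 and -0.41, with signals of 169 and 110.3 on KO 6 against 289 to 499 and 192 to 309.7 on the other KO arrays and 476 to 588 and 245 to 402 on the WT arrays. Ccne1 and Ccne2, which act at the start of S phase, had -0.19 and -0.21. Ccna1, a cyclin of the male germline, stayed between 29.3 and 34.2 on the KO and 28.0 and 36.5 on the WT arrays. Ccnb1 was not analysed, because no probe set carried it as its single gene symbol.

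The MCM genes encode the ring-shaped helicase that opens DNA at replication origins. All 6 had a change below 0, from -0.50 for Mcm5 to -0.21 for Mcm3. In limma 0 passed, against 29.2% of all genes in either direction, while 3 were lower at an unadjusted p under 0.05. Mcm5 had signals of 185, 460.4, 339, 489 and 539 on KO 6 to KO 10, against 449, 602, 605, 527 and 542 on WT 1 to WT 5. KO 6 was lowest and KO 8 next lowest for it, and KO 10 lay within the WT range. On KO 6 the 6 genes had signals of 0.390 to 0.646 times the median of the other KO arrays.

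The centromere proteins, grouped by the symbol Cenp, mostly act at the platform on which kinetochores form. They shifted least of the cell cycle classes. Of 21 genes 1 was lower and none higher, against 16.2% and 13.0% of all genes, with a median of -0.12. At an unadjusted p under 0.05, 4 were lower and 1 was higher. The gene that fell was Cenps, which also serves DNA repair, with 34.3 ± 2.40 in KO and 43.6 ± 3.35 in WT cells and a log2 change of -0.25 (SE 0.061, adjusted p = 0.00992). On KO 6 the 21 genes had signals of 0.380 (Cenpf) to 1.296 (Cenpv) times the median of the other KO arrays, with a median ratio of 0.784. For Cenpe, which is a kinesin by structure, this ratio was 0.419. Genes of the complex that stays at centromeres through the cycle were spread over this range, with 0.483 for Cenpi, 0.533 for Cenpk, 0.583 for Cenpt, 0.786 for Cenpn and 1.052 for Cenpq. Cenpb, which binds centromeric satellite DNA, had a positive change of 0.22 (adjusted p = 0.0807), and Cenpv had -0.32 (adjusted p = 0.053), which passed without KO 6 (-0.39, adjusted p = 0.0207).

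Of the 7 Cdca genes, named for expression with the cell division cycle, 1 was lower, against 16.2% of all genes. Cdca7l, a nuclear partner of Myc, had signals of 88.5, 145, 134, 168 and 168 on KO 6 to KO 10, against 165, 213, 267, 268 and 211 on WT 1 to WT 5. KO 9 and KO 10 overlapped WT 1, and the log2 change was -0.63 (SE 0.16, adjusted p = 0.0127), and it stayed called whichever of the 10 arrays was left out. Cdca8, a subunit of the chromosomal passenger complex, had 266 ± 100.2 in KO and 378 ± 27.9 in WT cells and a change of -0.57 (SE 0.23, adjusted p = 0.0801), and Cdca5, which protects sister chromatid cohesion, had -0.35. Cdca4, a regulator of transcription, had signals of 318 to 354 on the KO and 328 to 348 on the WT arrays, the narrowest range of the class.

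**Figure D3:**
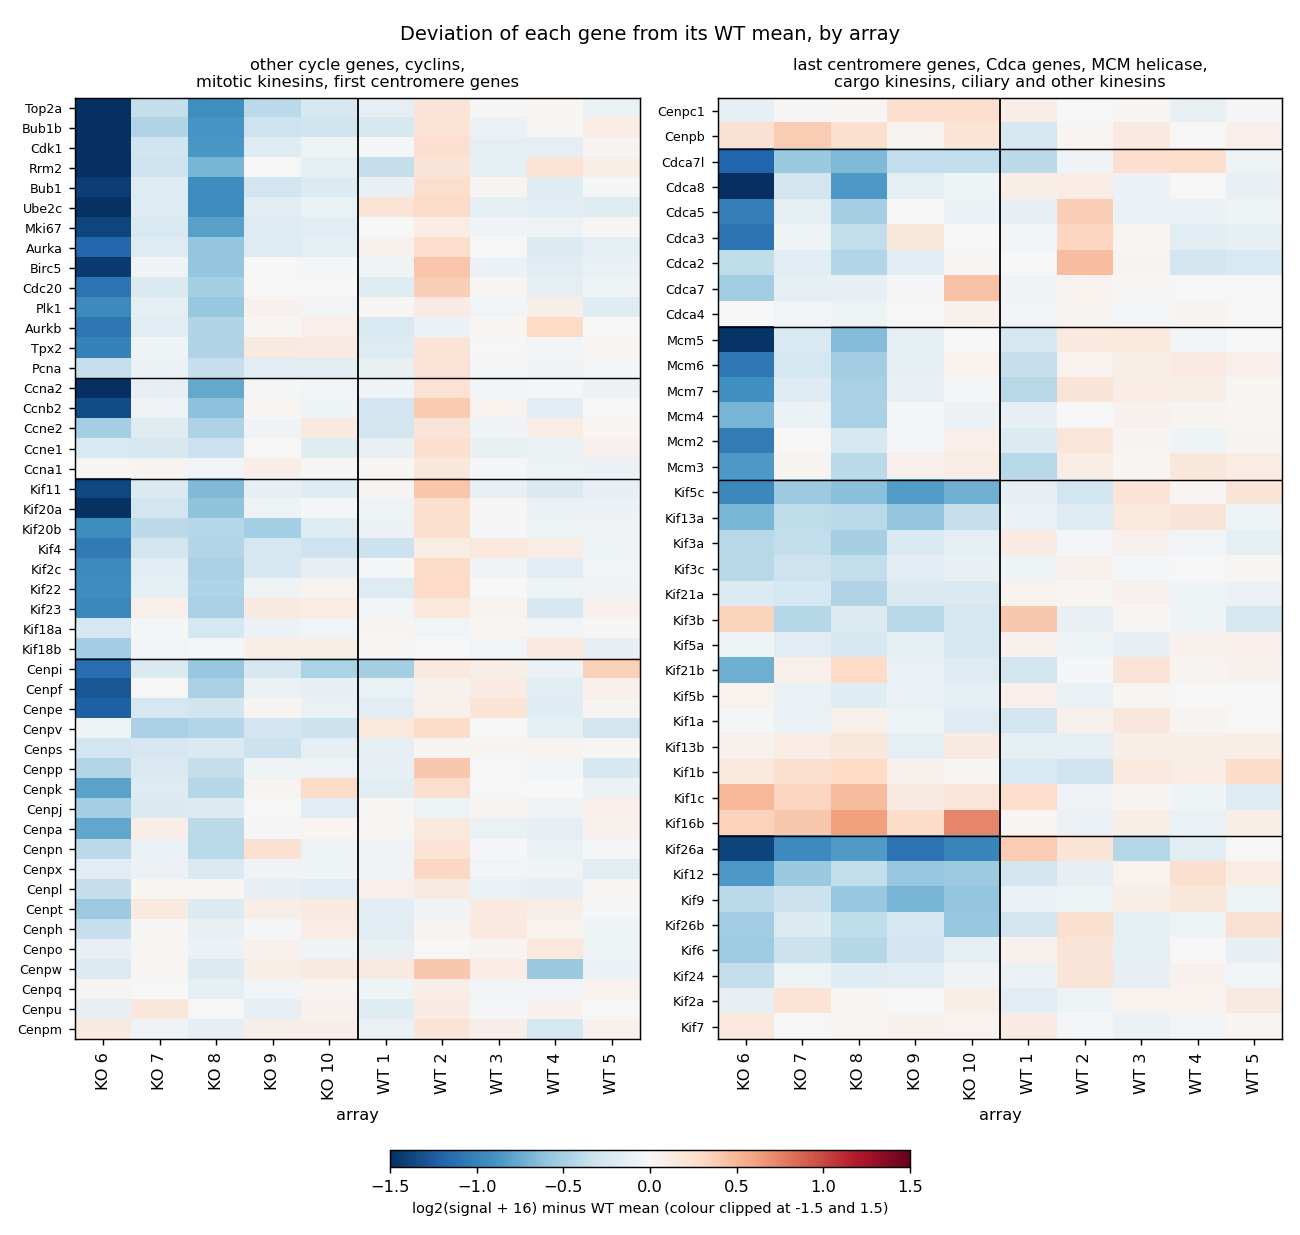
Deviation of each of the 84 tested genes from its own WT mean on each array, in log2(signal + 16), with KO arrays on the left of the vertical line and horizontal lines between classes. KO 6 is blue in nearly all cell cycle classes and KO 8 in most, and WT 2 is pale red there. Kif5c, Kif13a, Kif26a, Kif12 and Kif9 are blue on all 5 KO arrays. Some cell cycle genes, such as Bub1b, Cdca7l, Top2a and Kif20b, are also below their WT mean on all 5.

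The level of the cell cycle genes differed between single arrays. Relative to the WT mean, the mean log2 signal of the 62 genes was -0.82 on KO 6, -0.13 on KO 7, -0.42 on KO 8, -0.07 on KO 9 and -0.04 on KO 10, against -0.11, 0.17, 0.01, -0.05 and -0.03 on WT 1 to WT 5. KO 9 and KO 10 were thus within the range of the WT arrays, KO 7 was just below it, and KO 6 and KO 8 were far below it. KO 6 was the lowest of all 10 arrays for 50 of the 62 genes (80.6%), against 26.7% of all genes tested and 8 of the 22 other kinesins (36.4%). WT 2 was the highest of all 10 for 37 of the 62 (59.7%), against 11.4% of all genes and 4 of 22 other kinesins (18.2%). The median SD of the cell cycle genes on the log2 scale was 0.37 over KO arrays and 0.16 over WT arrays, against 0.15 and 0.13 for the other kinesins and 0.12 and 0.13 for all genes. The KO spread was the larger for 50 of 62 cell cycle genes, against 45.0% of all genes.

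**Figure D4:**
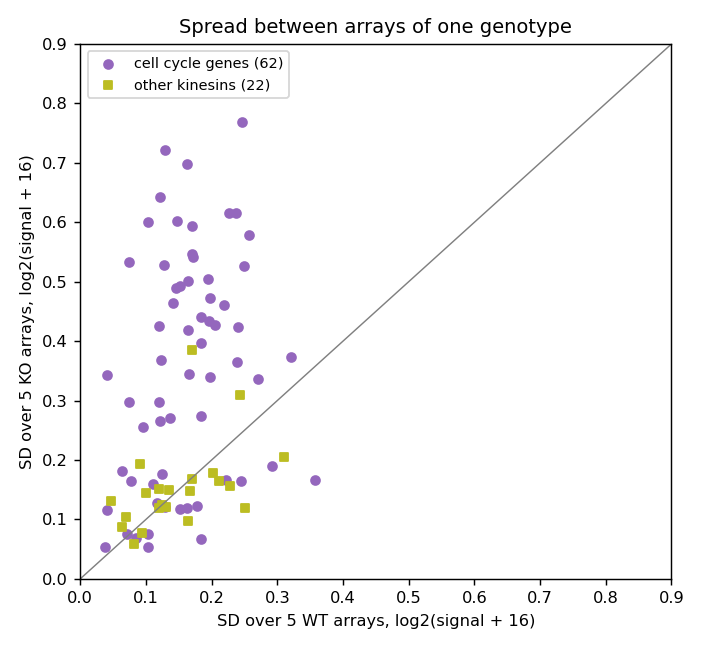
SD of log2(signal + 16) over the 5 KO arrays (vertical axis) against that over the 5 WT arrays (horizontal axis) for each tested gene, with the line of equal spread. Cell cycle genes lie above the line in 50 of 62 cases, and the other kinesins in 9 of 22.

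The arrays that differed in cell cycle level also differed in other respects. KO 6, KO 8 and WT 2, which had the lowest, the next lowest and the highest cell cycle level, were the 3 arrays without Xist signal. With those 3 left out, the median change of the cell cycle genes was -0.016, with 3 lower, and that of the other kinesins was -0.19, with 6 lower and 1 higher, against 12.1% of all genes lower and 9.87% higher (21.9% in either direction). With the Xist signal as a block, 5 cell cycle genes were lower, against 15.1% of all genes (27.5% in either direction), and the median was -0.23. The calls of Top2a, Pcna and Kif4 were lost and that of Cenpv was gained. This block fits the same shift in both genotypes. KO 6 and KO 8 were low among the KO arrays and WT 2 high among the WT arrays, so the block cannot take up these differences. Without KO 6 alone, 8 cell cycle genes were lower, against 15.6% of all genes (28.9% in either direction), with a median of -0.18, and without KO 8 alone 3 were lower with a median of -0.25. The number lower was 3 without WT 2 or WT 4, 4 without WT 3 or WT 5, and 12 without KO 10, against 13.2% (without WT 4) to 17.1% (without WT 1) of all genes lower over the fits without a single array. With KO 6 and WT 1 as a block, 21 cell cycle genes were lower and 1 was higher, while the share over all genes also grew, to 20.6% lower and 36.2% in either direction. With both left out 11 were lower, against 17.6% of all genes (31.3% in either direction). The part of the Xist difference, of the spike-in and rRNA levels of KO 6 and WT 1, and of the mice behind each array was not tested.

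RNA of other cells in the sort was checked because thymocytes divide. Of 19 tested thymocyte markers 0 were lower in limma (1 at an unadjusted p under 0.05) and 1, Zap70, was higher, and their summed signal was 1912 on KO 6, 2917 to 3380 on the other KO arrays and 2603 to 3058 on the WT arrays. Cd3e had signals of 51.0 to 74.4 on the KO and 56.3 to 67.4 on the WT arrays, above the 40th percentile limit of 21.5 to 22.1. Rag1, the recombinase of developing lymphocytes, was 64.5 on KO 6 and 293 to 427 on the other KO arrays, against 209 to 299 on WT arrays. KO 8, with its low cell cycle level, had the highest thymocyte sum of all arrays, and KO 6 the lowest. Of 13 myeloid markers 7 were lower and 2 higher, with sums of 4862 to 6039 on KO and 6917 to 7395 on WT arrays, and of 5 B cell markers 1 was lower and 2 were higher, with sums of 419 to 466 on KO and 464 to 529 on WT arrays. Of 9 endothelial markers 6 were higher (1090.0 to 1395 on KO and 660 to 1176 on WT arrays), of 10 fibroblast markers 3 were higher (3580 to 4789 on KO and 3008 to 3788 on WT arrays), and of 3 erythroid markers 1 was lower (156 to 191 on KO and 213 to 265 on WT arrays). Over all genes 16.2% were lower and 13.0% higher. The part of these other cells in the levels of the genes described here was not tested.

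Relative to the WT mean, the mean log2 signal of the 22 other kinesins lay between -0.28 and -0.17 on the KO arrays. On the WT arrays it lay between -0.033 and 0.022, without overlap. For the ciliary and other kinesins alone it was -0.51 to -0.28 on KO and -0.088 to 0.064 on WT arrays. The cargo kinesins alone overlapped, at -0.18 to -0.074 on KO and -0.088 to 0.079 on WT arrays. Without KO 6, 11 of the 22 were lower and 1 was higher, against 15.6% and 13.3% of all genes, with a median of -0.22. Of the 14 cargo kinesins 5 were lower and 2 higher, against 16.2% and 13.0% of all genes, and the other 7 missed the threshold. In 5 of the 14 every KO value lay below every WT value, against 12.0% of all genes. Kif5c, a heavy chain of conventional kinesin typical of neurons, had signals of 112, 154, 145, 123 and 135 on KO 6 to KO 10, against 212, 188, 271, 238 and 268 on WT 1 to WT 5. The lowest WT signal was above the highest KO signal, and the log2 change was -0.74 (SE 0.11, adjusted p = 3.6e-04); its weaker probe set gave -0.62. Its close relatives did not pass: Kif5b, the heavy chain used in most tissues, had signals of 1515, 1369.6, 1289.9, 1368 and 1328 on KO 6 to KO 10, against 1539.5, 1366, 1498, 1463 and 1464 on WT 1 to WT 5, with a change of -0.094 (SE 0.058, adjusted p = 0.255), an interval of -0.22 to 0.033 and changes of -0.094 to 0.12 over its 6 probe sets. Kif5a, another neuronal heavy chain, had -0.18 (adjusted p = 0.0564), which passed without KO 6 (-0.20, adjusted p = 0.0339).

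Kif3a, the motor subunit that carries material into cilia, had signals of 189.9, 197, 179, 219.7 and 233 on KO 6 to KO 10, against 284, 257, 272, 253 and 234 on WT 1 to WT 5. All KO arrays were below all WT arrays by a narrow margin, with a change of -0.33 (SE 0.081, adjusted p = 0.00856), and its 3 weaker probe sets gave -0.26 to -0.15 without passing. Kif3c, an alternative partner of Kif3a, had 138 ± 14.1 in KO and 170.4 ± 6.06 in WT cells and fell by 0.28 (adjusted p = 0.0136), while Kif3b, the usual partner, had -0.20 (adjusted p = 0.37) and its highest signals on KO 6 and WT 1, at 142 and 150.1. Kif13a, which moves recycling endosomes, fell by 0.48, with 122 ± 13.8 in KO and 176 ± 22.3 in WT cells (adjusted p = 0.00277), and Kif21a, which restrains microtubule growth, fell by 0.27, with 629 ± 44.2 in KO and 761 ± 37.6 in WT cells (adjusted p = 0.00743). Over the 5 probe sets of Kif13a the changes ran from -0.48 to -0.10, with 3 called. The weaker probe set of Kif21a gave -0.19 without passing.

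A pair of cargo kinesins rose. Kif16b, which transports early endosomes through a lipid-binding domain, had signals of 110.0, 116, 137, 105 and 149 on KO 6 to KO 10, against 84.7, 77.5, 89.8, 76.6 and 89.2 on WT 1 to WT 5. The groups did not overlap, as for 10.1% of all genes in this direction, and the change was 0.48 (SE 0.095, adjusted p = 0.00256), with 0.28 for its weaker probe set. Kif1c, which carries dense-core vesicles and integrins, had signals of 288, 251, 283, 219 and 227 on KO 6 to KO 10, against 242, 191, 204, 189 and 171 on WT 1 to WT 5. KO 9 and KO 10 overlapped WT 1, and the change of 0.32 (SE 0.10, adjusted p = 0.0293) was no longer called without KO 6, KO 7, KO 8, WT 2, WT 4 or WT 5 (adjusted p = 0.0559 to 0.0759). The weaker probe set of Kif1c gave 0.097 without passing. Kif1b and Kif13b, which move synaptic vesicle precursors and membrane proteins, had changes of 0.16 and 0.066 without passing, and Kif1a, a relative of Kif1b, had -0.063. Over the 7 probe sets of Kif1b the changes ran from -0.19 to 0.16, and over the 3 of Kif13b from -0.050 to 0.13. Kif21b had -0.13. Kif17, a motor of dendrites and cilia, was too dim to be tested.

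Of the 8 ciliary, signalling and other kinesins 5 were lower and none higher, against 16.2% and 13.0% of all genes. The other 3 missed the threshold, the median was -0.37, and none was higher at an unadjusted p under 0.05 either. Kif26a, a kinesin without motor activity that dampens growth factor signalling, had the largest change of all 84 genes in this fit. Its signals were 187, 258, 279, 229.5 and 252 on KO 6 to KO 10, against 675, 591, 380.0, 460.3 and 518 on WT 1 to WT 5. Every KO signal was below every WT signal, and the change of -1.06 (SE 0.14, adjusted p = 1.8e-04) corresponded to a 2.08-fold lower level. Its relative Kif26b had 41.2 ± 6.22 in KO and 59.3 ± 12.0 in WT cells and fell by 0.39 (adjusted p = 0.0208), a call lost without WT 2 or WT 5 (adjusted p = 0.0512 and 0.0522).

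Kif9, a motor of motile cilia and sperm tails, had signals of 105, 113, 92.3, 83.1 and 91.6 on KO 6 to KO 10, against 134, 136, 155, 164 and 137 on WT 1 to WT 5. Again the groups did not overlap, and the change was -0.52 (SE 0.089, adjusted p = 9.6e-04). Kif6, also found in motile cilia, fell by 0.34, with 24.9 ± 4.24 in KO and 35.8 ± 4.93 in WT cells (adjusted p = 0.00965) and was above the 40th percentile of its array on 4 of 5 KO arrays. Kif12, a kinesin of kidney and other epithelia, had signals of 14.7, 22.0, 27.2, 21.8 and 22.4 on KO 6 to KO 10, against 30.1, 35.3, 41.9, 49.9 and 44.4 on WT 1 to WT 5. Its change was -0.58 (SE 0.11, adjusted p = 0.00155), but only 3 of the 5 KO signals exceeded the 40th percentile of their array, and its other probe set, without the suffix of shared sequence, gave -0.065 (adjusted p = 0.462). Kif24, Kif2a and Kif7, which act at centrioles, on microtubule ends and at the ciliary tip in hedgehog signalling, had changes of -0.16, 0.037 and 0.060, none past the threshold. Kif27 and Kif28 were too dim to be tested.

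**Figure D5:**
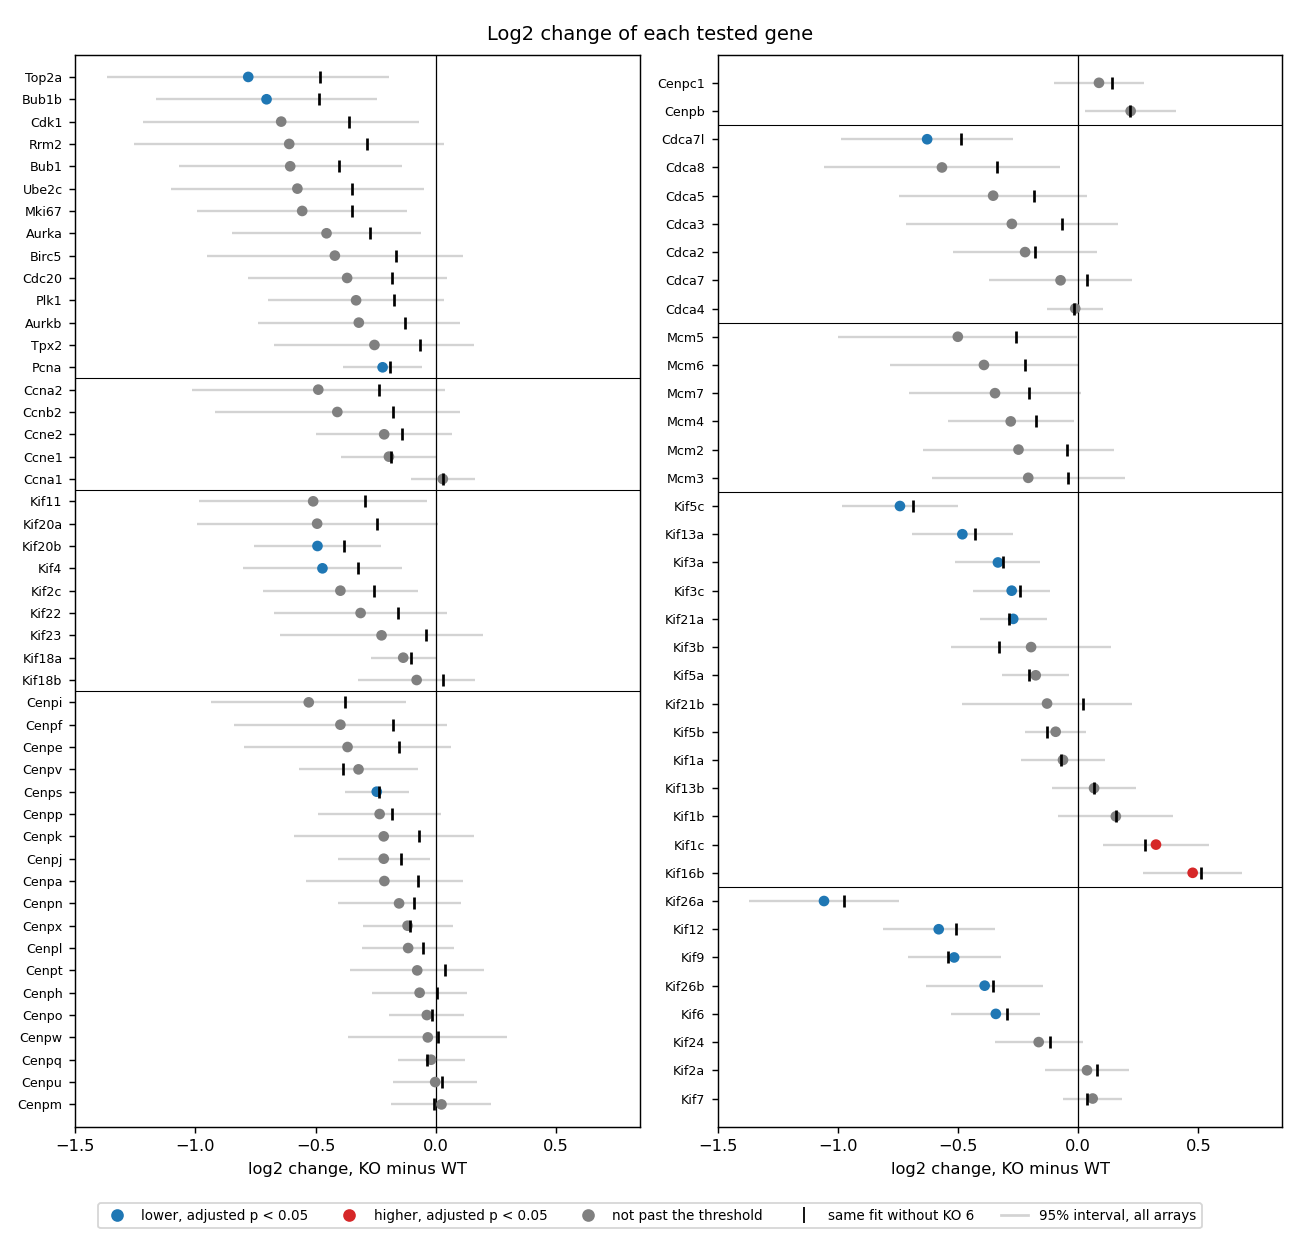
Log2 change (KO minus WT) of each of the 84 tested genes with its 95% interval, grouped by class; blue and red mark changes past the threshold and the black tick the same fit without KO 6. For most cell cycle genes the tick lies closer to 0, while for the other kinesins that fell it lies near the point.

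Motor partners and relatives of these kinesins gave few calls. Of 27 genes of kinesin light chains, kinesins with Kifc symbols, dynein, dynactin and cargo adaptors, 2 were lower and 1 was higher. These shares of 7.41% and 3.70% stood against 16.2% and 13.0% of all genes, and the median change was 0.023. Kifc3, a kinesin that moves to microtubule minus ends at cell junctions, rose by 0.68 on the log2 scale, with 192 ± 24.7 in KO and 113 ± 6.28 in WT cells (adjusted p = 1.1e-04). The dynein intermediate chain Dync1i1, typical of neurons, fell by 0.50, with 229.6 ± 23.8 in KO and 331 ± 13.0 in WT cells (adjusted p = 2.8e-04), and Dync1i2, its widely used relative, fell by 0.21 (adjusted p = 0.0321).

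Genes of replication and mitosis outside the chosen symbols repeated the pattern by array. Of 68 other mitotic genes 15 were lower in limma (22.1%, against 16.2% of all genes) and 0 were higher (13.0% of all genes). At an unadjusted p under 0.05, 0 were higher as well. Their median was -0.28, and KO 6 was the lowest of all 10 arrays for 56 of them. Without KO 6, 11 were lower with a median of -0.14, and leaving out any other single array gave 6 (without KO 8) to 18 (without KO 10). The 4 with the smallest adjusted p were Ttk, the kinase Mps1 of the spindle checkpoint (-0.79, adjusted p = 0.00466), Depdc1b (-0.62, adjusted p = 0.00547), Plk4, the master kinase of centriole duplication (-0.63, adjusted p = 0.00715), and the checkpoint protein gene Bub3 (-0.25, adjusted p = 0.0123). Of 41 replication genes 3 were lower (7.32%, against 16.2% of all genes) and 0 higher, also 0 higher at an unadjusted p under 0.05, with a median of -0.18. The 3 were Cdt1, which loads the MCM helicase (-0.45), Rfc2, a clamp loader subunit (-0.25), and the nuclease Fen1 (-0.24). Without KO 8, 0 replication genes were lower.

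Regulators of the cycle were divided, with 5 of 46 lower and 5 higher, against 16.2% and 13.0% of all genes. The largest changes were of inhibitors of cyclin-dependent kinases. Cdkn2a, the locus of p16 and p19Arf, had signals of 1786, 1181, 1281, 1132 and 857 on KO 6 to KO 10, against 655, 172, 215, 417 and 345 on WT 1 to WT 5. All KO signals were above all WT signals, KO 6 having the highest and WT 2 the lowest signal of all, and the change was 1.85 (SE 0.30, adjusted p = 6.6e-04). Cdkn2b, the neighbouring gene, which encodes the inhibitor p15, had signals of 2032, 1812, 2103, 1836 and 1713 on KO 6 to KO 10, against 1202, 1111, 941, 938 and 767 on WT 1 to WT 5, also without overlap, and a change of 0.94 (SE 0.11, adjusted p = 5.6e-05). Cdkn1c, the inhibitor p57 and an imprinted gene, had signals of 953, 676, 730.0, 678 and 692 on KO 6 to KO 10, against 2231, 2418, 2227, 2068 and 1798 on WT 1 to WT 5. Here the KO signals were all far below the WT signals, with a change of -1.51 (SE 0.10, adjusted p = 1.1e-06). Rb1, the retinoblastoma protein that restrains E2F, fell by 0.40, with 546 ± 34.7 in KO and 724 ± 53.3 in WT cells (adjusted p = 8.7e-04). The mitotic transcription factor Foxm1, with 81.2 ± 3.97 in KO and 78.5 ± 5.74 in WT cells, and E2f1, with 33.2 ± 7.35 in KO and 33.2 ± 3.19 in WT cells, had changes of 0.042 and -0.013 and were not past the threshold.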

How the data were processed

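Gene expression was measured on Affymetrix Mouse 430 2.0 arrays, 5 of Fezf2 KO and 5 of WT cells. The deposited values are linear signal intensities of each probe set, made with MAS5 per the submitters' processing notes; the scaling target and version are not named there, and no detection calls were used. Of 45101 probe sets 34958 had a single gene symbol, 932 several and 9211 none in the platform annotation, and 34754 were matched to RefSeq GRCm38.p6 by Entrez number. Each gene was represented by its brightest probe set. After log2(signal + 16), which understates changes of dim genes, limma 3.58.1 in R 4.3.3 was fitted with a trend and robust variance over 14087 genes, and tested on simulated data first. Tables were handled with pandas 2.3.3 in Python 3.11.15. The number of arrays limits the precision. Genes named with signals on every array were Mki67, Top2a, Pcna, Cdk1, Kif11, Kif23, Kif5b, Kif3a and the members with the largest changes past the threshold, and further genes were named after their values were seen. The members and gene lists were chosen with earlier results of these data known. Alternatives covered the offset, scaling, filter, choice of probe set, moderation, array weights, threshold, left-out arrays and blocks.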

Additional observations from a re-analysis of the deposited data

Results flagged for a closer look

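A single array far from the others of its group was looked for in 40 sets of 5 arrays, KO or WT, and chance picks out about 1 in 20. This occurred in 2, both for WT 2. Its Pcna signal was 3389, against 2684 to 2873 on the other WT arrays. Its Kif20b signal was 206, against 161 to 169 on the other WT arrays. Without WT 2 the change of Pcna was -0.17 (adjusted p = 0.0915) and Kif20b kept its call in limma.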

How the results depend on the processing

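No paired analysis was possible because the title numbers of the KO and WT arrays are not shared between the groups. The numbers lower and higher over all genes were 1313 and 1160 at a threshold of 0.01, where 10 members were lower and 1 was higher, with 2 cell cycle genes and 1 mitotic kinesin lower and 1 other kinesin higher. With KO 6 and WT 1 as a block 32 members were lower, with 21 cell cycle genes and 4 mitotic kinesins among them, and with both left out 11 cell cycle genes were lower. Leaving out KO 6, KO 8 and WT 2, chosen after seeing the data, left 9 members lower and 1 higher, with 3 cell cycle genes, 1 mitotic kinesin and 6 other kinesins lower and 1 other kinesin higher. With the Xist signal as a block, also chosen after seeing the data, or with probe sets of suffix _s, _x or _a left out, 1 mitotic kinesin was lower. When probe sets were averaged per gene, 1 member, an other kinesin, was higher. Leaving out a single array gave 1857 to 2413 genes lower and 1514 to 1872 higher, 12 to 22 members lower and 1 to 2 higher, 3 to 12 cell cycle genes lower, 1 to 3 mitotic kinesins lower, and 9 to 11 other kinesins lower and 1 to 2 higher. The change of Kif23, not past the threshold in any fit, was 0.012 with array weights (adjusted p = 0.957) and 0.15 without KO 6, KO 8 and WT 2 (adjusted p = 0.27). With probe sets of suffix _s, _x or _a left out, Top2a was read from a far dimmer probe set, with a mean signal of 41.3 against 758. There its change was -0.12 (adjusted p = 0.313). The cause of these shifts was not tested.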
